A study of Mus musculus with 20 samples.

Results

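The livers of 5 female Pdss2 mutant mice labelled as fed probucol were compared with the livers of 5 female Pdss2 mutant mice labelled as untreated. These 10 samples, of 20 in the series, were chosen by the treatment and source labels. Both groups carried 2 copies of the kd missense allele, written B6.Pdss2(kd/kd), on the B6 background at backcross generation 13. Mice labelled probucol were 140 to 145 days old and had standard chow with 1% probucol by weight, which the submitters estimated as about 95 mg per kg per day. Untreated mice were 129 to 143 days old and ate the same chow without the drug. Mutants given CoQ10 (about 400 mg per kg per day, 153 to 156 days old) and wild-type B6 mice without treatment (215 to 217 days old), 5 female mice each, are given for their levels, and their arrays shared the fit and its estimate of the spread. RNA of 1 liver was hybridised to each Illumina mouse array. The labels contradict each other for these 10 mice: arrays whose treatment field says probucol carry a name prefix for untreated, and the reverse. The treatment field is used here. Every direction below depends on it. By the array name each sign between these 2 groups would turn, and a statement that sets 1 of them apart would name the other. The labels do not tell whether albumin, score and age go with the treatment field or with the array name.

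Pdss2 encodes a subunit of the enzyme that builds the isoprenoid tail of coenzyme Q, the lipid that carries electrons between the respiratory complexes and serves as an antioxidant in membranes. Mice with the kd allele develop kidney disease, while the liver is the organ that handles lipoproteins, bile acids and most foreign compounds. Probucol is a lipid-soluble antioxidant drug that lowers blood cholesterol, HDL cholesterol included, and is used here as a diet supplement for coenzyme Q deficiency.

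Urine albumin, one of the kidney measures recorded in the labels, differed between the groups. Mutants labelled probucol excreted 1.36, 0.84, 1.48, 1.86 and 1.60 mg of albumin per 24 h, against 27.85, 53.25, 57.34, 17.41 and 13.52 mg in untreated mutants. The groups did not overlap. The means were 1.43 ± 0.38 mg in mutants labelled probucol and 33.9 ± 20.3 mg in untreated mutants (SD, n = 5 each), with a two-sided exact permutation p of 0.00794, the smallest that 5 against 5 mice can give, and 0.0238 after adjustment over 3 label measures. The glomerular nephritis score was 3, 0, 0, 1 and 0 in mutants labelled probucol and 3, 4, 3, 2 and 2 in untreated mutants. Its exact permutation p was 0.0476, and 0.0714 after adjustment, so the score did not pass. Age averaged 143.6 ± 2.1 days in mutants labelled probucol and 137.0 ± 6.9 days in untreated mutants (SD, n = 5 each), because untreated replicates 4 and 5 were 129 and 130 days old (exact permutation p = 0.0794, also after adjustment).

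Arrays detected 12268 to 14596 probes in mutants labelled probucol and 12386 to 15003 in untreated mutants. The tissue label held: 12 hepatocyte markers were measured, and Apoa1, the main protein of HDL, was at 16.05 to 16.14 (log2 intensity, the scale of all levels below) in livers labelled probucol and 16.05 to 16.13 in untreated ones. The median difference of these 12 markers was 0.00, 6 being higher and 6 lower. No probe named Pdss2 was at hand, so its transcript was not analysed here, and a missense allele need not alter its level. In these bulk samples fewer cells of a type and less RNA per cell cannot be told apart.

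Of 15096 probes tested, 2 passed an adjusted p of 0.05 in limma's fit over all 20 arrays (0.0132%), 1 higher and 1 lower in livers labelled probucol (0.00662% each). Both were named genes. Cyp4a12a, a fatty acid omega-hydroxylase that is typical of male mouse liver, fell, and Abcc4, an efflux pump for bile acids, cyclic nucleotides and drugs at the blood-facing membrane of hepatocytes, rose. Before adjustment 926 probes, or 6.13%, had a p under 0.05, of which 437 were higher (2.89%) and 489 lower (3.24%). In 137 probes, or 0.908%, the 2 groups did not overlap, 60 being higher (0.397%) and 77 lower (0.51%). Of 9262 genes, each by 1 probe, 47.2% were higher and 6.51% had an unadjusted p under 0.05.

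Cyp4a12a, on mouse chromosome 4, was at 5.41, 5.53, 5.49, 5.30 and 5.92 in livers labelled probucol, against 8.54, 7.91, 7.37, 7.25 and 6.51 in untreated livers. It was not detected above background in any of 5 livers labelled probucol and was detected in all 5 untreated ones, with no overlap. Its fall was at least 2.52-fold, a bound set by the lowest detected signal of each array because the probucol-labelled mean is a background level. The fitted difference was -1.99 ± 0.24 (log2 ± SE, limma adjusted p = 9.01e-04). Cyp4a12a averaged 5.40 in mutants given CoQ10 and 5.56 in wild-type mice, so the untreated mutants alone stood above background. Within the array numbers 1 to 4, which each held both groups, the difference was -3.13, -2.11, -1.86 and -0.59. A fit of only these 2 groups did not call Cyp4a12a (difference -1.99, adjusted p = 0.203) or Abcc4 (0.87, adjusted p = 0.268). Without probucol replicates 1, 2 and 4 the difference was -1.81 for Cyp4a12a and 0.93 for Abcc4, and the adjusted p was 0.171 for each. The smallest difference within an array number came from probucol replicate 5 and untreated replicate 5, the nearest pair of the 2 groups.

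The other measured Cyp4a genes did not pass the test. Cyp4a12b, the close relative of Cyp4a12a, was at 5.93, 5.93, 5.60, 5.98 and 5.64 in livers labelled probucol, none detected, and at 6.63, 7.51, 6.69, 6.15 and 6.19 in untreated livers, all detected. The groups did not overlap, and the level in livers labelled probucol was at least 1.37-fold lower (limma adjusted p = 0.215). The sequences of these 2 genes are alike, so that signal of one probe may come from the other gene. Cyp4a14, which PPAR alpha induces, differed by -0.37 ± 0.21, and Cyp4a31 by -0.31 ± 0.29, with overlapping groups. All 4 measured members of the family were thus on the lower side, with a median of -0.60 against -0.01 for all 9262 genes. The family median was -0.54 and 3 of 4 members were lower without probucol replicates 1, 2 and 4.

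Abcc4, on chromosome 14, was at 7.54, 8.09, 7.79, 7.73 and 7.97 in livers labelled probucol, against 7.06, 6.67, 7.23, 6.94 and 6.85 in untreated livers. All 10 values lay above background, and every liver labelled probucol stood above every untreated one. Abcc4 rose 1.83-fold (log2 0.87 ± 0.13, limma adjusted p = 0.0136). It averaged 7.47 in mutants given CoQ10 and 7.99 in wild-type mice, and the test of probucol-labelled mutants against each gave differences of 0.36 ± 0.13 (adjusted p = 0.347) and -0.17 ± 0.13 (adjusted p = 0.688). The comparisons share the probucol-labelled mice. Blocking by array number gave a difference from untreated mutants of 0.88 (adjusted p = 0.0532). Within array numbers 1 to 4 it was 0.48, 1.13, 0.82 and 1.11. The call was also lost without probucol replicate 2 (adjusted p = 0.0501), untreated replicate 2 (0.0521) or untreated replicate 4 (0.0528), without the 2 youngest untreated mice (0.126), and with arrays scaled to 1 median (0.559). In these settings the difference ran from 0.80 without untreated replicate 2 to 0.93 with arrays scaled to 1 median.

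**Figure D1:**
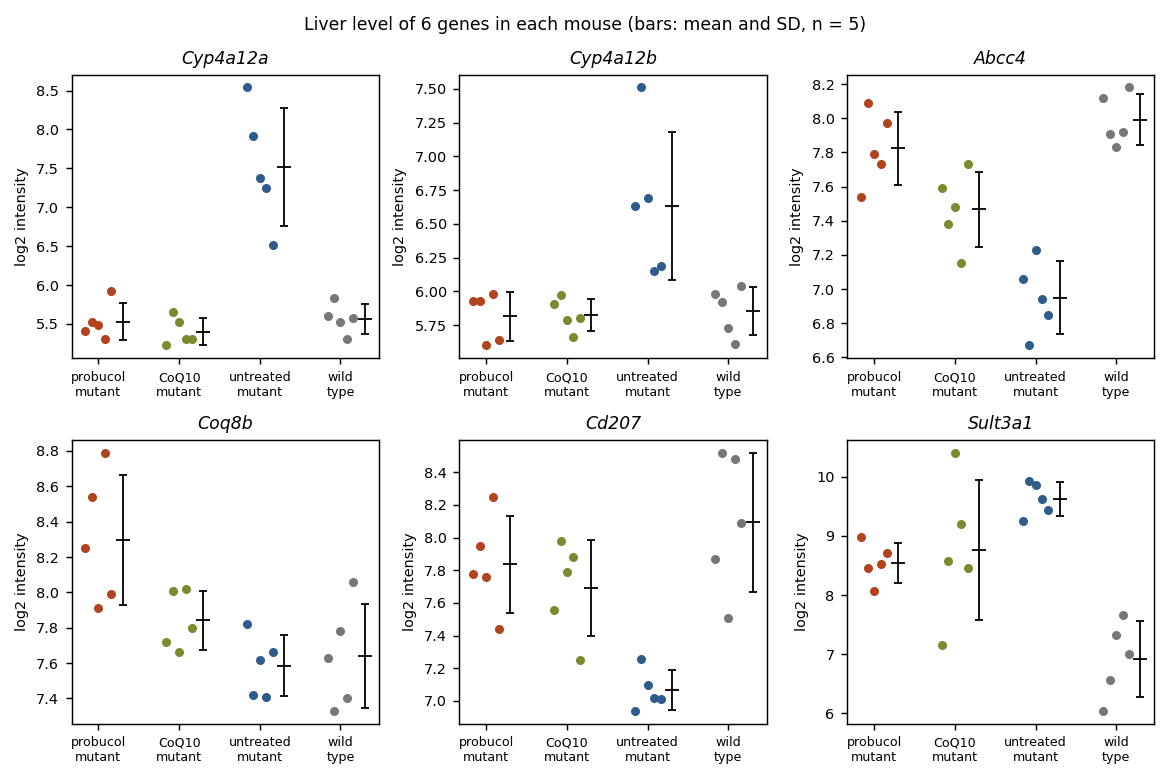
Log2 intensity of 6 genes in each mouse of the 4 groups (points), with the mean and SD of each group (n = 5). Cyp4a12a and Cyp4a12b stand above the other groups only in untreated mutants, Abcc4 and Cd207 are lowest there, and Coq8b is highest in mutants labelled probucol. Only Cyp4a12a and Abcc4 passed the test between mutants labelled probucol and untreated mutants.

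The mutation lies in the pathway of coenzyme Q synthesis, and 2 genes of that list had groups that did not overlap, where 0.939% of all genes did so. Coq8b, an atypical kinase needed for coenzyme Q synthesis, was at 8.25, 8.54, 7.91, 8.79 and 7.99 in livers labelled probucol and at 7.82, 7.42, 7.62, 7.41 and 7.66 in untreated livers. The groups did not overlap, but the difference of 0.71 ± 0.16 did not pass (limma adjusted p = 0.221). Coq8b averaged 7.84 in mutants given CoQ10 and 7.64 in wild-type mice. Adck5, a less studied kinase of the same family, was at 8.75, 8.38, 8.80, 8.21 and 8.19 in livers labelled probucol and at 8.82, 9.01, 9.11, 8.98 and 8.97 in untreated livers. These groups did not overlap either (difference -0.51 ± 0.13, limma adjusted p = 0.318), and Adck5 averaged 9.14 in mutants given CoQ10 and 9.09 in wild type. Coq7, the hydroxylase of a late step, differed by 0.00 ± 0.12 and Coq9, the lipid-binding partner of Coq7, by -0.16 ± 0.11. Of 12 measured genes of the list 2 were higher and 10 lower, with a median of -0.09. On each side 1 had an unadjusted p under 0.05, a share of 16.7% against 6.51% of all genes.

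The 12 genes of smallest p among those higher without overlap, after Abcc4, differed by 0.39 to 1.13, and none passed the test. Their limma adjusted p ran from 0.163 for Pde6c to 0.405 for Acnat2. A2ml1, a protease inhibitor related to alpha-2-macroglobulin, showed the widest difference of them. It was at 11.72, 12.50, 11.45, 12.77 and 11.34 in livers labelled probucol and at 10.67, 10.64, 11.14, 10.87 and 10.78 in untreated livers (difference 1.13 ± 0.24, adjusted p = 0.181). Probucol replicates 2 and 4 were the highest. Acnat2, a peroxisomal enzyme that joins fatty acids to amino acids, differed by 0.95 ± 0.26. Cd207, the langerin of dendritic cells, was at 7.78, 7.95, 7.76, 8.25 and 7.44 in livers labelled probucol and at 6.94, 7.26, 7.10, 7.02 and 7.01 in untreated livers. Its mean was 7.69 in mutants given CoQ10 and 8.09 in wild-type mice, so that untreated mutants had the lowest level of the 4 groups.

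Of the other genes on the higher side, Pde6c (a cone photoreceptor phosphodiesterase) differed by 0.79, Polb (a DNA repair polymerase) by 0.68, Gstp1 (a glutathione transferase) by 0.60 and Desi2 (a SUMO-removing peptidase) by 0.60. Other probes gave smaller differences of the same sign, 0.40 and 0.53 for Gstp1 and 0.28 for Desi2. Rnaseh2b, a subunit of a ribonuclease that removes ribonucleotides from DNA, differed by 0.53 and Cyp3a13, a drug-metabolising P450, by 0.39. Ifi27l2b, a relative of interferon-induced proteins, was above background in 4 livers labelled probucol and in 0 untreated livers and was at least 1.12-fold higher. Aebp2, a cofactor of a histone methyltransferase, differed by 0.46 on one probe and by -0.11 on another, so its direction depends on the probe. Pde6c averaged 6.24 in mutants given CoQ10 and 6.48 in wild-type mice, and only 1 liver labelled probucol, at 7.91, stood apart from the other 4 at 7.29 to 7.44.

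The 12 genes on the lower side differed by -1.05 to -0.42 on the log2 scale, with limma adjusted p of 0.181 to 0.389. Several encode matrix proteins. Col6a1, a chain of collagen VI, was at 7.17, 7.0, 7.49, 7.31 and 7.01 in livers labelled probucol and at 7.58, 7.76, 8.29, 7.88 and 7.77 in untreated livers (difference -0.66 ± 0.14, adjusted p = 0.181). Mgp, the matrix Gla protein that inhibits calcification, was at 7.48, 6.66, 6.99, 6.48 and 7.07 in livers labelled probucol and at 8.04, 7.61, 7.59, 8.14 and 7.52 in untreated livers (difference -0.84 ± 0.18, adjusted p = 0.181). Col16a1 differed by -0.61 ± 0.14, Col5a1 by -0.55 ± 0.15 and Timp3, an inhibitor of matrix metalloproteinases, by -0.45 ± 0.12. Mutants given CoQ10 averaged 7.72 for Col6a1 and 7.63 for Mgp, and wild-type mice 7.77 and 7.53. For these genes livers labelled probucol had the lowest mean of the 4 groups.

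Tlr5, the receptor for bacterial flagellin, had the widest difference on the lower side. It was at 7.69, 7.31, 8.23, 6.99 and 7.95 in livers labelled probucol and at 8.99, 8.85, 8.79, 8.29 and 8.51 in untreated livers (difference -1.05 ± 0.25, limma adjusted p = 0.254). Cebpe, a transcription factor of granulocyte maturation, differed by -0.81 ± 0.18. Arsa, the lysosomal arylsulfatase A, differed by -0.55 ± 0.13, Fhl1, a LIM-domain protein of muscle, by -0.43 ± 0.12 and Plvap, which forms the diaphragms of endothelial pores, by -0.42 ± 0.11. Arsa was uniform among livers labelled probucol at 8.77 to 8.89, while untreated livers ran from 9.18 to 9.83.

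**Figure D2:**
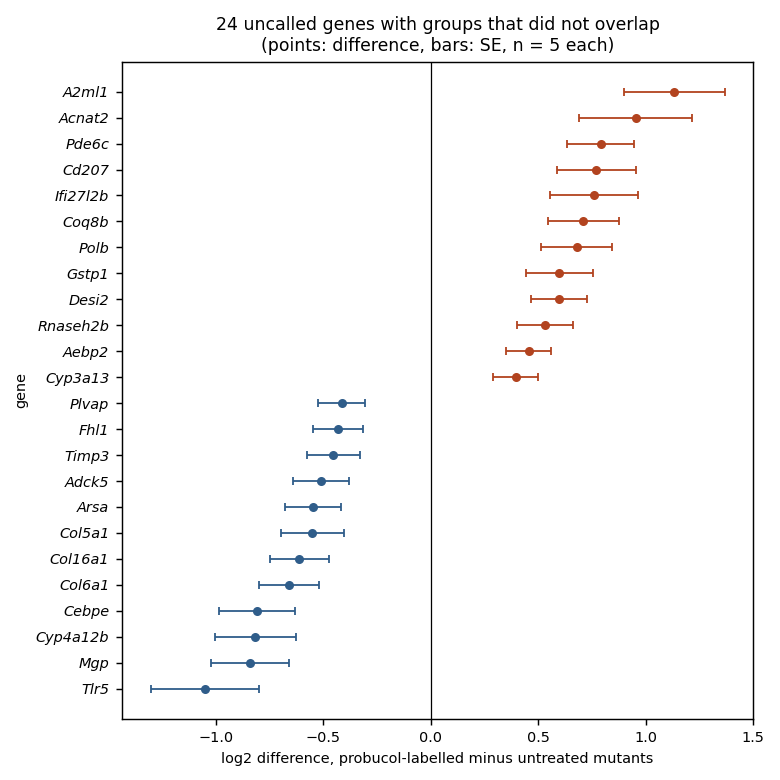
Log2 difference between mutants labelled probucol and untreated mutants for the 24 uncalled genes of smallest p whose groups did not overlap (points, with SE as bars, n = 5 each). Differences run from -1.05 for Tlr5 to 1.13 for A2ml1, and none passed the test.

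Markers of stellate cells and of the matrix were also mostly on the lower side. Of 13 measured, 11 were lower and 2 higher, with a median of -0.23, and 5 had an unadjusted p under 0.05, all lower. Over all 9262 genes, 6.51% had such a p, 3.63% on the lower side. Ecm1, an extracellular matrix protein that stellate cells make, was at 11.73, 11.98, 12.02, 11.52 and 12.10 in livers labelled probucol and at 12.18, 12.23, 12.42, 12.20 and 12.37 in untreated livers, with no overlap (difference -0.41 ± 0.12, limma adjusted p = 0.484). Reln, the secreted glycoprotein reelin, differed by -0.49 ± 0.14, Acta2, the smooth muscle actin of activated stellate cells, by -0.54 ± 0.22 and Timp2 by -0.39 ± 0.15. The other probes of Acta2 gave 0.00 and -0.08, so its difference rests on 1 of 3 probes. The mean level of the list, relative to its mean over all 20 livers, was -0.02, -0.28, -0.15, -0.22 and -0.19 in livers labelled probucol and 0.16, -0.03, 0.09, 0.15 and -0.03 in untreated livers. The ranges of the groups met between probucol replicate 1 and untreated replicates 2 and 5. With probucol replicates 1, 2 and 4 left out the median was -0.15 and 11 of 13 were lower. Of these, 2 had an unadjusted p under 0.05, where 6.22% of all probes had one in that setting.

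Acute phase genes, which hepatocytes express more under inflammatory cytokines, were mostly on the higher side. Of 24 measured, 18 were higher and 6 lower, with a median of 0.20, and 7 had an unadjusted p under 0.05, all higher, against 2.88% of all genes on that side. None passed after adjustment. Cxcl1, a chemokine that draws neutrophils, was at 10.66, 12.32, 9.88, 11.86 and 9.20 in livers labelled probucol and at 9.21, 9.07, 7.96, 8.76 and 9.71 in untreated livers (difference 1.84 ± 0.47, limma adjusted p = 0.307). Apcs, serum amyloid P, was at 12.09, 12.34, 10.93, 12.53 and 11.23 in livers labelled probucol and at 11.11, 11.11, 10.45, 11.14 and 10.37 in untreated livers (difference 0.99 ± 0.26, adjusted p = 0.353). In both genes probucol replicates 1, 2 and 4 were high, and replicates 3 and 5 lay within or near the range of the untreated livers.

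Hp, the haemoglobin-binding protein haptoglobin, differed by 0.50 ± 0.15, Stat3, the transcription factor of interleukin 6 signals, by 0.49 ± 0.15 and Lcn2, an iron-siderophore binder, by 1.21 ± 0.45. Saa1, serum amyloid A, was at 13.42 in probucol replicate 2 and at 10.90 to 11.52 in the other 4, against 10.21 to 11.73 in untreated livers, so that 1 liver set its mean. The list's mean level was 0.33, 0.78, -0.09, 0.40 and 0.08 in livers labelled probucol and -0.05, -0.02, -0.14, 0.09 and 0.10 in untreated livers. Without probucol replicates 1, 2 and 4 the median was 0.01 and 12 of 24 were higher. These 3 livers were the high ones, so this value only describes the other 2 and is no separate evidence of a split. Markers of neutrophils, S100a8 and S100a9, were highest in probucol replicate 4, at 9.76 and 8.45, and lowest in replicate 5, at 7.10 and 6.10. Untreated livers spanned 7.12 to 8.74 for S100a8 and 5.65 to 7.64 for S100a9. The part of such cells in the acute phase values was not tested.

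Serpina1e, an alpha-1-antitrypsin gene of male-biased expression, was picked after its values were seen, because it had the highest positive difference of all genes. It was at 14.89, 15.34, 11.89, 15.80 and 12.15 in livers labelled probucol and at 11.08, 13.70, 10.66, 12.44 and 11.73 in untreated livers (difference 2.09 ± 0.74, limma adjusted p = 0.618). Probucol replicates 1, 2 and 4 were again the high ones. Near-identical genes lie beside Serpina1e, and the probe may not separate them.

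Chaperones of the endoplasmic reticulum, which fold secreted proteins and are induced by the unfolded protein response, were also mostly on the higher side. Of 21 measured, 19 were higher and 2 lower, with a median of 0.26, and 5 had an unadjusted p under 0.05, all higher, where 2.88% of all genes were higher at that p. None passed after adjustment. Sdf2l1, a part of the chaperone complex, was at 8.86, 8.82, 8.40, 9.77 and 8.39 in livers labelled probucol and at 7.81, 8.39, 7.40, 8.78 and 8.30 in untreated livers (difference 0.71 ± 0.29, limma adjusted p = 0.711). Hspa5, the central chaperone of this compartment, was at 7.72, 7.79, 6.62, 8.12 and 7.54 in livers labelled probucol and at 6.68, 6.91, 7.06, 7.58 and 7.43 in untreated livers (difference 0.43 ± 0.33, adjusted p = 0.962). Probucol replicates 1, 2 and 4 were the highest of the 10 livers for Hspa5, and probucol replicate 3 was the lowest. Ssr1, of the translocon, differed by 0.46 ± 0.18, Ppib, a proline isomerase, by 0.37 ± 0.16 and Sel1l, of the degradation complex, by 0.28 ± 0.13. Leaving out those 3 livers gave a median of -0.02 with 10 of 21 higher, which again describes only probucol replicates 3 and 5 beside the untreated livers.

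The promoters of these chaperones are shown because some hold the endoplasmic reticulum stress element, a known binding motif of this response. The letters CCAAT, 9 bases of any kind and the letters CCACG were searched as 1 motif on both strands in the 300 bases from 250 before to 50 after each gene start, in RefSeq sequence of build GRCm38.p6. They occurred in 39 of 32851 promoters (0.119%) and in 7 of the 20 measured list genes with a promoter entry. Each site is written along the strand that reads as the motif, with the fixed letters in capitals.
Hspa5 (chr2:34772025-34772043, plus strand gene, motif on the strand of the gene): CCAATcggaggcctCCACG
Syvn1 (chr19:6046532-6046550, plus strand gene, motif on the strand of the gene): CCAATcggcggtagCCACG
Pdia6 (chr12:17266491-17266509, plus strand gene, motif on the strand of the gene): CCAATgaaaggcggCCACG
Dnajc3 (chr14:118937827-118937845, plus strand gene, motif on the strand of the gene): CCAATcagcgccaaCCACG
Creld2 (chr15:88819520-88819538, plus strand gene, motif on the opposite strand): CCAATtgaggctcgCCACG
Calr (chr8:84847075-84847093, minus strand gene, motif on the opposite strand): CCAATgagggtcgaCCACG
Hsp90b1 (chr10:86705638-86705656, minus strand gene, motif on the strand of the gene): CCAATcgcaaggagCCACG
Hsp90b1 (chr10:86705533-86705551, minus strand gene, motif on the opposite strand): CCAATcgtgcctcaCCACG
The promoter of Hspa5, chr2:34771840-34772139 on the plus strand, holds its site, which begins 65 bases before the gene start: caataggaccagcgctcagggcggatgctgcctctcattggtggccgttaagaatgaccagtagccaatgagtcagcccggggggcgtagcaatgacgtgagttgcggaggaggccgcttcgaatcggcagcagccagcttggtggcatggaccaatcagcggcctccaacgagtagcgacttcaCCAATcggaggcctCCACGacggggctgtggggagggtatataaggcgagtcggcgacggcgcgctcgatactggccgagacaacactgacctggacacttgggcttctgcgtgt

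Besides Hspa5, the genes with this motif ranged from -0.01 to 0.61, and none passed the test. Creld2, a secreted stress-induced protein, differed by 0.61 ± 0.40 and Syvn1, the ubiquitin ligase of the degradation complex, by 0.49 ± 0.23. Pdia6, a disulfide isomerase, differed by 0.24 ± 0.20, Calr, a calcium-binding chaperone, by 0.19 ± 0.29 and Dnajc3, a cochaperone of Hspa5, by 0.16 ± 0.18. Hsp90b1, the Hsp90 of this compartment, whose promoter held the motif at a pair of positions, differed by -0.01 ± 0.18. A match of letters describes the promoter and is no measure of binding in these livers.

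Genes of the integrated stress response, the related arm that acts through translation, lay on the other side. Of 14 measured, 11 were lower and 3 higher, with a median of -0.13. On each side 1 had an unadjusted p under 0.05, a share of 14.3% against 6.51% of all genes. Trib3, a pseudokinase induced by this response, was at 8.69, 8.14, 7.48, 8.34 and 7.91 in livers labelled probucol and at 9.38, 7.96, 8.84, 9.60 and 9.83 in untreated livers (difference -1.01 ± 0.31, limma adjusted p = 0.484). A second probe of Trib3 gave -0.37. Ddit3, a proapoptotic transcription factor of the response, differed by -0.12 ± 0.15 on one probe and by 0.06 on another. Mthfd2, a mitochondrial folate enzyme, was above background in 3 livers labelled probucol and in 0 untreated livers.

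Cell cycle genes were highest in probucol replicates 1 and 2. Mcm4, a subunit of the replicative helicase, was at 8.91, 10.05, 8.66, 8.69 and 8.74 in livers labelled probucol and at 8.60, 8.54, 8.55, 8.40 and 8.27 in untreated livers (difference 0.54 ± 0.19, limma adjusted p = 0.618). The groups did not overlap for Mcm4, and replicate 2 lay far above the rest. Mcm5, of the same helicase, was at 8.05, 9.08, 7.38, 7.81 and 6.92 in livers labelled probucol and at 7.18 to 7.43 in untreated livers. Cdk1, the mitotic kinase, was at 7.61 and 7.99 in probucol replicates 1 and 2 and at 6.01 to 6.58 in the other 3. The list's mean level was 0.50, 1.01, -0.11, 0.07 and -0.29 in livers labelled probucol and -0.19 to -0.09 in untreated livers. Of 12 measured genes 11 were higher, with a median of 0.38. Among the 12, 1 had an unadjusted p under 0.05 (8.33%), against 6.51% of all genes. With probucol replicates 1, 2 and 4 left out the median was -0.18, and 3 of 12 were higher, a value that omits the livers of highest level.

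**Figure D3:**
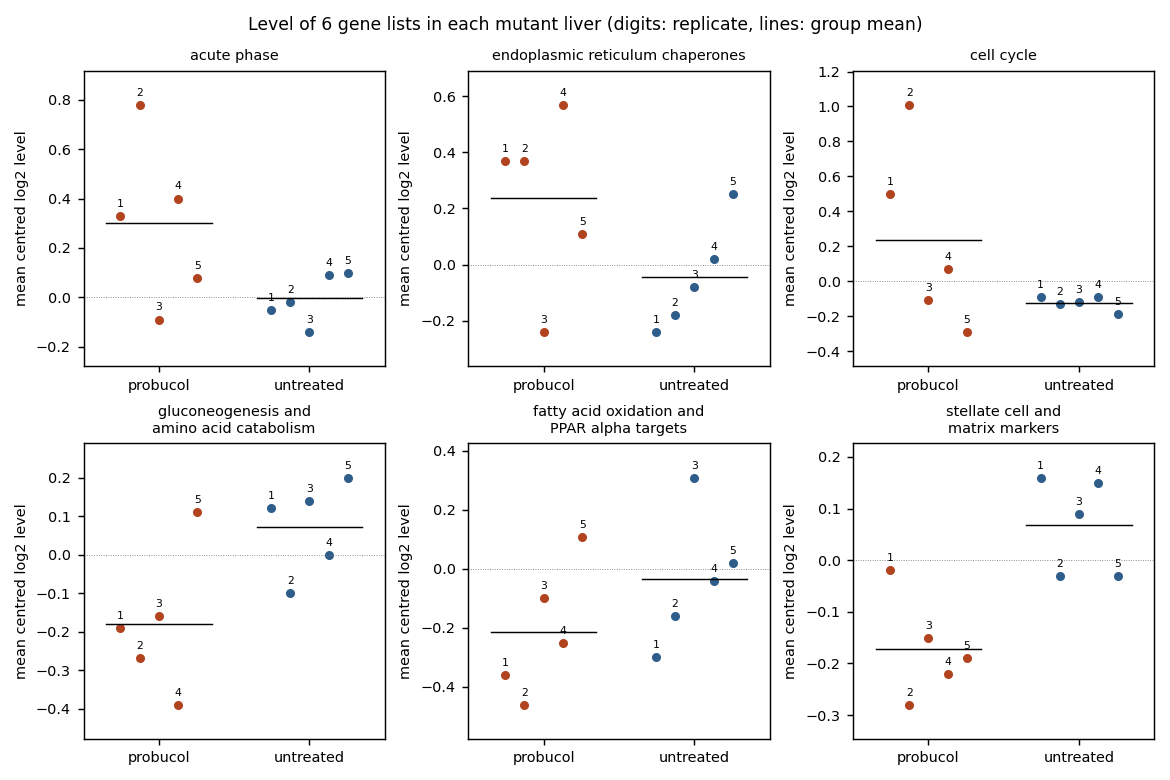
Mean level of 6 gene lists in each mutant liver, as log2 intensity centred on the mean of 20 livers and averaged over the members of a list (points, with the replicate number, and the group mean as a line). Probucol replicates 1, 2 and 4 carry the high acute phase and chaperone levels, replicates 1 and 2 the high cell cycle level, and 4 of 5 livers labelled probucol lie below all untreated livers for matrix markers.

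Genes of fatty acid oxidation and other PPAR alpha targets were mostly on the lower side. Of 41 measured, 30 were lower and 11 higher, with a median of -0.17, and 4 had an unadjusted p under 0.05, all lower. That is 9.76% of the list, against 6.51% of all genes and 3.63% on the lower side. Acot1, a cytosolic acyl-CoA thioesterase, was at 11.55, 10.40, 11.78, 10.56 and 12.07 in livers labelled probucol and at 11.69, 12.50, 13.37, 12.17 and 12.57 in untreated livers (difference -1.19 ± 0.38, limma adjusted p = 0.526). Cpt2, the inner membrane carnitine acyltransferase, was at 12.79, 13.05, 12.80, 12.58 and 13.02 in livers labelled probucol and at 13.10, 13.26, 13.61, 13.12 and 13.15 in untreated livers, without overlap (difference -0.40 ± 0.14, adjusted p = 0.616). Creb3l3, a fasting-responsive transcription factor, differed by -0.44 ± 0.15 and Acaa1a, a peroxisomal thiolase, by -0.31 ± 0.14. Pdk4, the kinase that turns off pyruvate dehydrogenase in fasting, differed by 0.13 ± 0.41 and Cpt1a by -0.19 ± 0.13. Without probucol replicates 1, 2 and 4, the livers of lowest level in this list, the median was 0.04 and 17 of 41 were lower.

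Genes of gluconeogenesis and amino acid breakdown were mostly on the lower side too. Of 19 measured genes 17 were lower and 2 higher, with a median of -0.18, and 6 had an unadjusted p under 0.05, all lower, where 3.63% of all genes were lower at that p. None passed after adjustment. Ass1, of the urea cycle, was at 14.57, 14.79, 14.81, 14.12 and 14.54 in livers labelled probucol and at 15.17, 14.90, 15.07, 14.54 and 15.24 in untreated livers (difference -0.42 ± 0.18, limma adjusted p = 0.724). Prodh, the proline dehydrogenase that passes electrons to coenzyme Q, differed by -0.58 ± 0.24, Tdo2, which opens tryptophan breakdown, by -0.54 ± 0.25 and Ppargc1a, a coactivator of fasting genes, by -0.45 ± 0.21. Pck1, the committed enzyme of gluconeogenesis, was at 8.47 in probucol replicate 3 and at 10.43 to 10.89 in the other 4, against 9.92 to 11.44 in untreated livers. Without probucol replicates 1, 2 and 4, the livers of lowest level in this list, the median was 0.02 and 9 of 19 were lower. Glycolysis genes were higher in 7 and lower in 4 of 11, with a median of 0.06.

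The genes that bear on the known lipid effects of probucol gave small differences. Of 16 measured genes of cholesterol synthesis 13 were higher and 3 lower, with a median of 0.12 and 0 at an unadjusted p under 0.05. The split was 8 and 8 (median 0.04) without the 2 youngest untreated mice, and 7 higher and 9 lower (median -0.04) without probucol replicates 1, 2 and 4. The latter setting omits the probucol-labelled livers of highest level in this list. Sqle, the squalene epoxidase, was at 12, 12.04, 11.29, 12.11 and 10.92 in livers labelled probucol and at 11.37, 11.94, 11.33, 10.62 and 11.55 in untreated livers (difference 0.31 ± 0.35). The groups overlapped over most of their range. Of 13 genes of HDL and cholesterol export 7 were higher and 6 lower, with a median of 0.05. Abca1, the lipid exporter that starts HDL, differed by 0.05 ± 0.13, Scarb1, the HDL receptor, by 0.08 ± 0.18 and Apoa1 by 0.00 ± 0.08. Apoa1 had the brightest signal of the genes with levels given here, and whether so bright a probe could still show a difference was not tested. Abca1 and Scarb1 were near background on this array, with Abca1 detected in 1 liver labelled probucol and 2 untreated livers and Scarb1 in 2 livers labelled probucol and 1 untreated liver.

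Lcat, the enzyme that esterifies HDL cholesterol, was at 12.63, 13.01, 12.97, 13.02 and 13.03 in livers labelled probucol and at 12.49, 12.86, 12.59, 12.79 and 12.71 in untreated livers (difference 0.24 ± 0.11, limma adjusted p = 0.736). Apom, an HDL apolipoprotein that carries sphingosine phosphate, differed by 0.30 ± 0.11 (adjusted p = 0.618), and Abcg8, a canalicular sterol exporter, by -0.44 ± 0.22. Apolipoprotein genes were higher in 9 and lower in 5 of 14, with a median of 0.03. Of 10 genes of sterol sensing and LDL uptake 3 were higher and 7 lower, with a median of -0.05. Npc1, which moves cholesterol out of lysosomes, was at 12.43, 12.35, 12.15, 11.96 and 12.61 in livers labelled probucol and at 12.71, 12.74, 13.15, 12.44 and 13.13 in untreated livers (difference -0.53 ± 0.16, adjusted p = 0.484). A second probe of Npc1 gave -0.44 and another gave 0.16, so its direction depends on the probe. Of 22 genes of fatty acid and triglyceride synthesis 10 were higher and 12 lower, with a median of -0.08. Fads2, the delta-6 desaturase, differed by -0.37 ± 0.12 without overlap, and by -0.23 on a second probe.

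Among 22 measured bile acid genes, Abcc4 included, 8 were higher and 14 lower, with a median of -0.09. At an unadjusted p under 0.05 Abcc4 was higher and 4 genes were lower, where 2.88% of all genes were higher and 3.63% lower. The split was 10 higher and 12 lower (median -0.01) without the 2 youngest untreated mice. Cyp7a1, the rate-limiting enzyme of bile acid synthesis, was at 11.65, 11.63, 14.19, 10.69 and 13.42 in livers labelled probucol and at 12.97, 12.87, 11.92, 11.07 and 11.72 in untreated livers (difference 0.20 ± 0.51), a spread within each group wider than the difference. Cyp27a1, of the acidic route, differed by -0.38 ± 0.16 and Cyp7b1, the oxysterol hydroxylase, by -0.51 ± 0.17. Slc10a1, the uptake transporter of bile acids, was at 6.58, 6.76, 7.28, 6.88 and 7.58 in livers labelled probucol and at 7.63, 7.23, 7.63, 7.50 and 7.43 in untreated livers (difference -0.47 ± 0.18, limma adjusted p = 0.698). Among the relatives of Abcc4, Abcc2, the canalicular pump, differed by 0.07 ± 0.20 on one probe and by -0.07 on another, Abcc3, another blood-facing pump, by -0.16 ± 0.17 and Abcc6 by -0.40 ± 0.16. Of 13 hepatic efflux and uptake transporters 3 were higher and 10 lower, with a median of -0.19.

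Genes of antioxidant defence were examined because probucol is known for that action. Of 24 measured targets of Nrf2, the main oxidant-responsive transcription factor, 14 were higher and 10 lower, with a median of 0.06, and 3 were higher at an unadjusted p under 0.05, a share of 12.5% at that p against 6.51% of all genes. Hmox1, haem oxygenase, differed by -0.03 ± 0.29 and Nqo1, a quinone reductase, by 0.43 ± 0.30. Osgin1, an oxidant-induced growth inhibitor, was at 11.03, 11.72, 11.52, 11.35 and 9.54 in livers labelled probucol and at 9.68, 11.33, 9.55, 8.91 and 9.81 in untreated livers (difference 1.17 ± 0.48, limma adjusted p = 0.712). Here 4 of 5 livers labelled probucol and 1 of 5 untreated livers formed the high end. Gstm4, a glutathione transferase, differed by 0.34 ± 0.16.

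Of 18 genes listed for peroxide and superoxide removal 4 were higher and 14 lower, with a median of -0.11. At an unadjusted p under 0.05, 1 was higher and 2 were lower (16.7%), against 6.51% of all genes. Txnip, which removes neither, is counted among the lower genes, also at that p. Txnip, which binds and inhibits thioredoxin and responds to glucose, was at 11.25, 10.93, 11.31, 10.55 and 11.54 in livers labelled probucol and at 12, 11.15, 12.91, 11.88 and 12.26 in untreated livers (difference -0.92 ± 0.26, limma adjusted p = 0.426). Prdx4, the peroxiredoxin of the secretory pathway, differed by 0.34 ± 0.12, and Sod3, the extracellular superoxide dismutase, by -0.37 ± 0.14. Xenobiotic P450 genes and their regulators were split, 12 higher and 13 lower of 25, with a median of -0.04. Nr1i2, the xenobiotic receptor PXR, was at 9.15, 8.69, 8.91, 8.39 and 9.42 in livers labelled probucol and at 9.52, 9.03, 9.52, 9.70 and 9.91 in untreated livers (difference -0.63 ± 0.19, adjusted p = 0.484). Its typical target Cyp3a11 differed by -0.25 ± 0.20 and Cyp2b10, the target of the receptor CAR, by 0.09 ± 0.25.

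Since Cyp4a12a is a male-typical gene in female mice, the sex-biased genes of liver were examined. Of 20 male-biased genes 8 were higher and 12 lower, with a median of -0.20, and 2 were higher and 5 lower at an unadjusted p under 0.05. Cyp4a12a, the gene that prompted this look, was itself counted among the lower ones. Of 20 female-biased genes 8 were higher and 12 lower as well, with a median of -0.15, and 2 were higher and 3 lower at that p. Over all genes 2.88% were higher and 3.63% lower at it. Without probucol replicates 1, 2 and 4 the male-biased median was -0.47, with 16 of 20 lower, while the female-biased median turned to 0.23, with 12 of 20 higher. Among livers labelled probucol those left out had the highest male-biased and the lowest female-biased levels. The opposite shifts thus follow from the choice and describe only probucol replicates 3 and 5. Sult3a1, a female-typical sulfotransferase, was at 8.98, 8.45, 8.07, 8.53 and 8.71 in livers labelled probucol and at 9.25, 9.93, 9.87, 9.63 and 9.44 in untreated livers, without overlap (difference -1.08 ± 0.40, limma adjusted p = 0.667). Its mean was 8.76 in mutants given CoQ10 and 6.92 in wild-type mice. Cyp17a1, a steroid hydroxylase, differed by -0.76 ± 0.26, Fmo1, a flavin monooxygenase, by -0.40 ± 0.14, Hao2, a hydroxyacid oxidase, by 1.06 ± 0.37 and Cyp2a4, a steroid-hydroxylating P450, by 0.65 ± 0.34. A second probe of Fmo1 gave 0.20, so its direction depends on the probe. None of these passed after adjustment.

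Growth hormone, which sets this sex bias, also induces Igf1. Igf1, the main growth factor that liver secretes under this hormone, was at 13.95, 14.25, 13.73, 13.62 and 13.97 in livers labelled probucol and at 14.18, 14.63, 14.39, 14.17 and 14.30 in untreated livers (difference -0.43 ± 0.14, limma adjusted p = 0.513). Probucol replicate 2 alone reached the untreated range. Igfbp3, the carrier of Igf1, differed by -0.46 ± 0.17, and by -0.24 on a second probe. Of 14 genes of this pathway 6 were higher and 8 lower, with a median of -0.06.

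Respiratory chain genes, whose products work with coenzyme Q, gave small differences. Of 34 measured genes of complex I, 14 were higher and 20 lower, with a median of -0.02 and members between -0.25 and 0.44. Of 33 genes of complexes II to V, 7 were higher and 26 lower, with a median of -0.07 and members between -0.15 and 0.19. Both splits turned without untreated replicates 1 and 4, to 25 of 34 higher for complex I (median 0.08) and 18 of 33 higher for complexes II to V (median 0.03). Those livers had the highest untreated levels of both lists, so leaving them out raises the differences by construction. Ndufs7, a complex I subunit near the quinone site, differed by -0.25 ± 0.12. It was the only member of either list with an unadjusted p under 0.05, where 6.51% of all genes had one. Of 17 genes of enzymes that reduce coenzyme Q, 5 were higher and 12 lower, with a median of -0.09.

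Clock genes varied widely between mice of both groups. Arntl, the core activator of the clock, was at 8.31, 7.18, 8.97, 8.16 and 8.70 in livers labelled probucol and at 7.45, 8.50, 6.78, 7.67 and 7.15 in untreated livers (difference 0.75 ± 0.30, limma adjusted p = 0.712). Nr1d1, a repressor of Arntl, was at 7.24, 7.59, 6.85, 6.80 and 7.27 in livers labelled probucol and at 7.87, 6.98, 8.0, 7.51 and 8.38 in untreated livers (difference -0.60 ± 0.26, adjusted p = 0.746). Among livers labelled probucol the lowest Arntl and the highest Nr1d1 were in the same mouse, replicate 2, and among untreated livers the highest Arntl and the lowest Nr1d1 were both in replicate 2. Of 14 measured clock genes 4 were higher and 10 lower, with a median of -0.46 that became -0.19 without the 2 youngest untreated mice. Mutants given CoQ10 averaged 8.96 for Arntl and 5.93 for Nr1d1, and wild-type mice 8.21 and 7.70. The hour of tissue collection is not given in the labels, and its part in these values was not tested. Immediate early genes were lower in 8 and higher in 1 of 9, with a median of -0.21. Zfp36, an mRNA-decay factor, differed by -0.68 ± 0.24 and Csrnp1 by -0.60 ± 0.17, while Fos spanned 6.63 to 8.72 in livers labelled probucol and 6.65 to 11.01 in untreated livers.

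Markers of other cells were split or few. Of 16 Kupffer cell and macrophage markers 10 were higher and 6 lower, with a median of 0.01, and Marco, a scavenger receptor, was at 5.34 to 6.89 in livers labelled probucol and 6.04 to 8.12 in untreated livers. Of 12 sinusoidal endothelial markers 6 were higher and 6 lower, with a median of -0.02, and Ehd3 differed by -0.28 ± 0.11. Sox9, a transcription factor of bile duct cells, was at 9.31, 8.77, 9.53, 9.27 and 8.97 in livers labelled probucol and at 8.25, 9.04, 8.47, 7.57 and 8.62 in untreated livers (difference 0.78 ± 0.25, limma adjusted p = 0.504). A second probe of Sox9 gave 0.29. The duct markers Krt23 and Tspan8 had the opposite sign, at -0.90 ± 0.32 and -0.38 ± 0.16, so that the 5 measured duct markers, 1 higher and 4 lower, did not move together. Of 5 T, B and natural killer cell markers 1 was higher and 4 lower, with a median of -0.09, and of 5 dendritic cell and antigen presentation markers likewise 1, Cd207, was higher and 4 were lower, with a median of -0.16. Interferon response genes were higher in 13 and lower in 10 of 23, with a median of 0.04. Of 4 red cell markers 1 was higher and 3 were lower, with a median of -0.20. Both neutrophil markers were higher, with a median of 0.49, and both markers of tissue beside the liver were lower, with a median of -0.14.

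**Figure D4:**
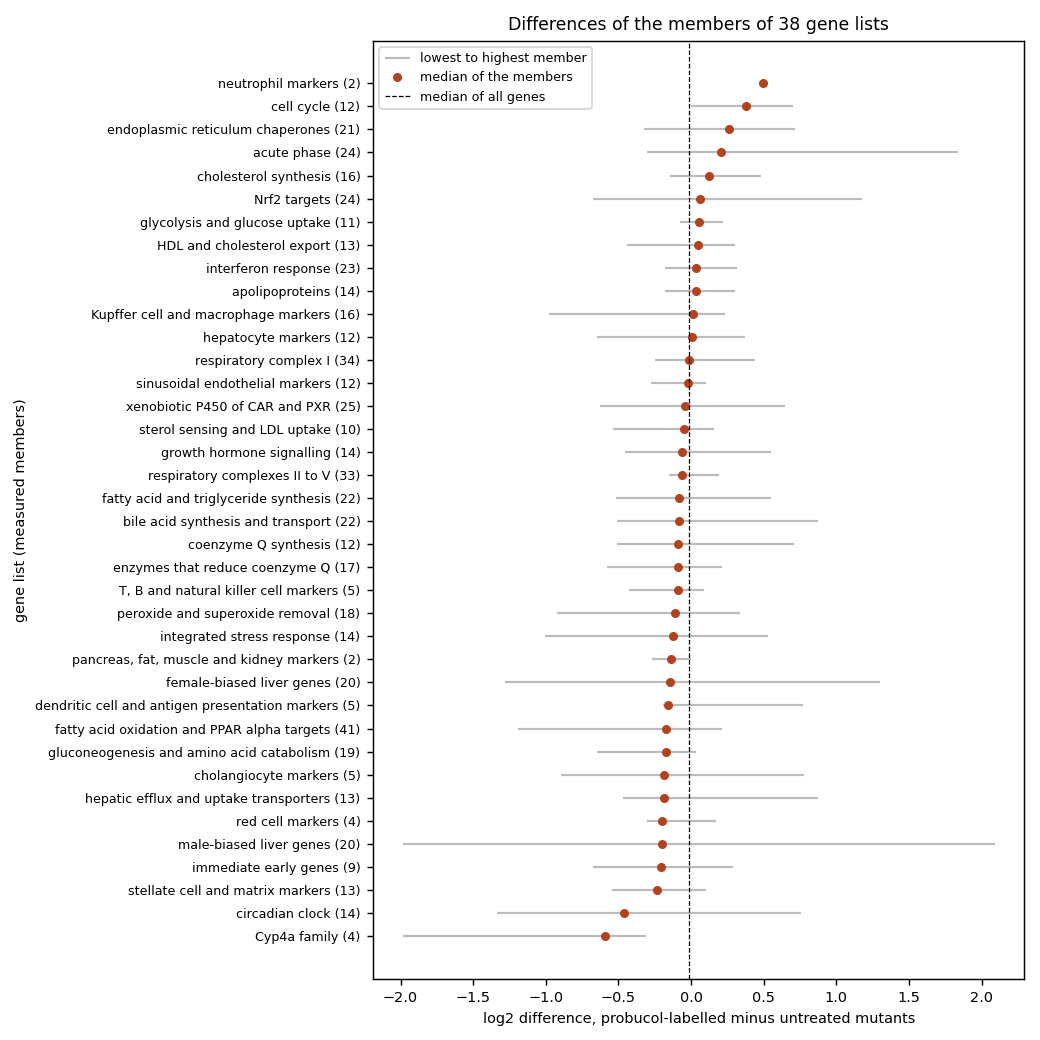
Median log2 difference between mutants labelled probucol and untreated mutants for 38 gene lists (points), with the lowest and highest member (lines) and the median of all 9262 genes (dashed, -0.01). The count of measured members stands beside each name. The Cyp4a family has the lowest median, -0.60, and the pair of neutrophil markers the highest, 0.49. In the Cyp4a family, Cyp4a12a and Cyp4a12b passed the detection filter only through the untreated livers.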

How the data were processed

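Liver RNA of single mice had been hybridised to Illumina bead arrays. The authors deposited a linear intensity per probe and array without background correction or normalisation, judged from the file headers and values, and beside it a detection value as a fraction that rises with intensity, so that 1 minus it served as the detection p. The authors also deposited normalised log2 values of the same arrays. Scanner software and their normalisation are not given in the sources used here.

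Intensities were corrected by normexp (offset 16), quantile-normalised and log2-transformed with limma 3.58.1 in R 4.3.3. Probes with a detection p under 0.05 in at least 5 of 20 arrays were kept, 15096 of 45281, of which 13202 had 1 symbol, 5 several and 1889 none. A fit of 4 group means to all 20 arrays gave differences with SE, and p-values were adjusted by Benjamini-Hochberg over all 15096 probes. Counts of calls are given only for mutants labelled probucol against untreated mutants. Replicates were separate mice, and their number limits precision.

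Named genes were those called, the 12 and 12 of smallest p with groups that did not overlap, and, from each list, up to 4 members of smallest p with some fixed genes. A list uses, per gene, its brightest kept probe. The members and the 38 lists were chosen with earlier results of these data known, and lists got no test. Albumin, score and age were compared by exact permutation (scipy 1.17.1). Data for this comparison over 15096 probes were also simulated, with independent normal noise and 50 probes changed at each size. There the fit recovered 20% of probes changed by 0.5 on the log2 scale, 88% by 1, 94% by 1.5 and all by 2, with 7 false calls. So many planted changes loosen the cut on adjusted p, whereas 2 probes passed in the real data. These shares therefore do not tell how many real changes of such sizes were missed.

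Same-numbered mice of the 2 groups correlated by -0.17 to 0.42 in their deviations, over 0.1 in 4 of 5 numbers. Probucol replicates 1 to 5 correlated best with untreated replicates 1, 2, 4, 4 and 5, which shared their array numbers. The main fit used neither the replicate number nor the array number as a block. With array number as a block limma did not call Abcc4 (adjusted p = 0.0532), and with replicate number as a block both genes were called. The array number in the array names, 1 to 4, may stand for a slide, which the labels do not say.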

Additional observations from a re-analysis of the deposited data

Results flagged for a closer look

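Among 306 groups of 5 values tested for a single liver far from the other 4, 18 were marked, and chance marks about 1 in 20. In livers labelled probucol these were Pde6c at 7.91, Mcm4 at 10.05, Lcat at 12.63, Sod3 at 6.60, Pck1 at 8.47, Saa1 at 13.42, Ppargc1a at 7.70 and Cyp3a11 at 13.91. The Mcm4, Saa1 and Cyp3a11 values belong to replicate 2, and those of Pck1 and Ppargc1a to replicate 3, whose age of 140 days was also marked. In untreated livers they were Arsa at 9.83, Cyp7b1 at 12.19, Ddit3 at 7.47, Hmox1 at 6.17 and Nqo1 at 7.38. Among the mean levels of lists, the Cyp4a family at 0.15 and lymphocyte markers at 0.10 stood apart in 1 liver labelled probucol each, replicates 5 and 2. The integrated stress response at -0.12 and coenzyme Q synthesis at -0.03 stood apart in untreated replicate 2.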

How the results depend on the processing

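Of the 2 probes called between mutants labelled probucol and untreated mutants, both were called again without background correction, with offset 50, from the authors' log2 values, without a detection filter, with array weights and with limma-trend. The count was 1 with median scaling, when array number was a block, and with detection in all 20 arrays, which removes Cyp4a12a by construction. It was 0 with only these 2 groups in the fit, where the adjusted p was 0.203 for Cyp4a12a and 0.268 for Abcc4. It was 5 without the 2 youngest untreated mice, of which 1 was among the main 2, Abcc4 being lost (adjusted p = 0.126), 1 without untreated replicates 1 and 4, and 0 without probucol replicates 1, 2 and 4. Leaving out 1 mouse gave 1 to 7 probes: 7 without probucol replicate 5, 4 without untreated replicate 3 or 5, 1 if either probucol replicate 2 or untreated replicate 4 was left out. Grouping by the array name gives the same 2 probes with signs turned. With the replicate block 2 probes were called, the same 2; 4 of 5 livers labelled probucol correlated best with the untreated liver of their number. The cause of these changes was not tested. A2ml1 passed without probucol replicate 5 (1.29, adjusted p = 0.0481). Polb (0.95, 0.0286) and Cyp4a12b (-1.13, 0.0139) passed without the 2 youngest untreated mice. The score's difference ran from -2.55 to -1.7 when 1 mouse was left out, with exact permutation p above 0.05 in 9 of 10 such tests, and that of age from 4.6 to 8.1 days, being 7.5 without probucol replicate 3 and 8.1 without untreated replicate 3 (exact permutation p = 0.0159 and 0.0476).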
